A study of Mus musculus with 26 samples.

Results

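RNA was sequenced from FACS sorted myeloid cells of WT and ACKR2-/- mice, and 10 genes of extracellular matrix breakdown are described here: the matrix metalloproteinases Mmp8, Mmp9, Mmp12, Mmp13, Mmp14 and Mmp19, the tissue inhibitors of metalloproteinases Timp1, Timp2 and Timp3, and the related membrane protease Adam8. They were chosen by name, by gene symbol in the monocyte and SPM tables and by the same Ensembl identifier in the lung table, and all 10 were found among the 50104 genes that the 3 tables share. ACKR2 is an atypical chemokine receptor that scavenges inflammatory CC chemokines. The 26 samples came from naïve female mice and held bone marrow monocytes (4 WT and 4 ACKR2-/-), small peritoneal macrophages (SPMs, 4 and 4) and MHCII negative lung macrophages (5 and 5). WT mice were C57BL/6J mice bought from a supplier, whereas ACKR2-/- mice were bred in-house, so that genotype and origin cannot be told apart. Each monocyte and SPM sample pooled cells of 5 mice, and the pooling of the lung samples was not given. SPMs were gated as CD11b high, MerTK+, CD226+ and MHCII+ cells, and the lung macrophages as CD11b low, MerTK-, CD226- and MHCII- cells. The loss of Ackr2 affects every cell of the mouse, and no sample is a knockout of 1 cell type.

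Matrix metalloproteinases are zinc enzymes, mostly made as inactive secreted precursors, that cut collagens, elastin, basement membrane and many cytokines and receptors. TIMPs bind the active site and block it, and Timp2 also takes part, with the membrane-bound Mmp14, in activating other family members. Neutrophils carry the Mmp8 and Mmp9 proteins ready-made in granules, alveolar and tissue macrophages are a known source of Mmp12, and fibroblasts are a known source of Timp3 and Mmp14.

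Mmp13, Mmp12 and Mmp8 lie in this order in 1 cluster on chromosome 9, on the plus strand of mm10. Mmp13 (ENSMUSG00000050578) spans chr9:7272514-7283331, Mmp12 (ENSMUSG00000049723) spans chr9:7344381-7369499 and Mmp8 (ENSMUSG00000005800) spans chr9:7558456-7568485. The gaps are 61049 bases between Mmp13 and Mmp12 and 188956 bases between Mmp12 and Mmp8. Mmp1b, Mmp3 and Mmp10, which are not members, lie between Mmp12 and Mmp8. The 3 members were read in different cells, Mmp8 mainly in monocytes and Mmp12 and Mmp13 mainly in lung samples. The 250 bases before each RefSeq start (GRCm38.p6, plus strand, 5′ to 3′) are therefore shown. Capitals mark matches to the AP-1 element (TGAGTCA or its reverse complement TGACTCA) and to the PEA3 element of ETS factors (AGGAAG or its reverse complement CTTCCT), which do not overlap each other here.
Mmp13, chr9:7272264-7272513: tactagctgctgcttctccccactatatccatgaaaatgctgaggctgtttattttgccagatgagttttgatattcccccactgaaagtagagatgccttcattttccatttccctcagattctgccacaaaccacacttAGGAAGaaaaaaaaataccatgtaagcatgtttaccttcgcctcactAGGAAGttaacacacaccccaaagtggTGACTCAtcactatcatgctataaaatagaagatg
Mmp12, chr9:7344147-7344396: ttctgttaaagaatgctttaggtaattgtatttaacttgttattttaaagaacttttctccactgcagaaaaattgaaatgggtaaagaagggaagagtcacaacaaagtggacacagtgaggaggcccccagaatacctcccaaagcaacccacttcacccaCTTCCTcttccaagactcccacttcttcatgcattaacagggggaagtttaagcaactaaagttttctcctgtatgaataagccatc
Mmp8, chr9:7558179-7558428: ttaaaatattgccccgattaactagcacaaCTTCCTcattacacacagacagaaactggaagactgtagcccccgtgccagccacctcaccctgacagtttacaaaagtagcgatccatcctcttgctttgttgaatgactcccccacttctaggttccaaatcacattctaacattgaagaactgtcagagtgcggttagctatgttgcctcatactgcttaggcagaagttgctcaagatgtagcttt
The Mmp13 window held the AP-1 letters 35 bases before the start and the PEA3 letters at 109 and 62 bases before it. The Mmp12 window held 1 PEA3 match 87 bases before the start, the Mmp8 window held 1 at 220 bases, and neither held the AP-1 letters. Mmp3 of the same cluster also held the AP-1 letters, 46 bases before its start. Promoters of 8 of the 10 genes were matched by symbol, all but Mmp9 and Mmp19. In windows of 300 bases (250 before to 50 after the start), AP-1 letters were found for 1 of the 8 and in 5.2% of all 32851 promoters, and PEA3 letters for 6 of the 8 and in 35.4%. The letters GGGCGG or CCGCCC of a GC box were found for 5 of the 8 and in 35.7% of all promoters, and for none of the 3 members on chromosome 9. These are matches of letters only.

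Between 12781144 and 35400034 reads per sample were counted on genes, so that 3 counts, the limit that a count of 0 allows, corresponded to 0.0773 to 0.264 counts per 1000000 reads (CPM). CPM here refer to the reads on the genes tested in that cell type and were scaled by TMM (trimmed mean of M values) factors. Ackr2 was at 0 in the 4 ACKR2-/- SPM samples against 0.24 to 0.616 CPM in WT, and had at most 2 counts in any monocyte sample. In the lung it had 0.282 to 1.64 CPM in ACKR2-/- and 7.75 to 22.1 CPM in 4 WT samples, but the library labelled WT replicate 5 was at 0. The MHCII gene H2-Ab1 went against the lung gate in 1 library: the library labelled WT lung replicate 3 had 21242 CPM, 12.4-fold above the highest of the other 9 (253 to 1708 CPM), and SPMs had 24425 to 37813 CPM. ACKR2-/- SPM replicates 1 and 4 had 380 and 707 CPM of the monocyte gene Ly6c2, against 16.8 to 56.6 CPM in the other 6 SPM samples. The same 2 libraries had the highest summed CPM of 6 large peritoneal macrophage genes (943 and 1059, against 147 to 613 in the other 6) and of 7 alveolar macrophage genes (491 and 489, against 27.7 to 113). Their sums of 7 monocyte genes (2955 and 3247 CPM) lay below that of WT SPM replicate 1 (5457 CPM). They lay above those of all remaining SPM samples (1628 to 2161 CPM). The alveolar list is not particular to alveolar macrophages in these data. Its sum was 7566 to 9230 CPM in WT and 4970 to 6655 CPM in ACKR2-/- monocytes, above all lung samples (679 to 2106 CPM). Car4 of the alveolar list was at 0 in the WT SPMs, and no other gene of these 3 lists was at 0 in either SPM group. Results that turn on WT lung replicate 3 or on ACKR2-/- SPM replicates 1 and 4 are given with and without them.

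Per kilobase of gene length, Mmp8 led in monocytes and Timp2 in both macrophage types. In WT monocytes the order was led by Mmp8 at 82.9 ± 19.4 CPM per kb (SD, n = 4), followed by Timp2 at 4.83 ± 1.03 CPM per kb, and the ranges of these did not overlap each other or those below. Mmp19 (0.641 CPM per kb), Mmp9 (0.593) and Adam8 (0.563) came next and overlapped each other. The other 5 genes were at or below 0.023 CPM per kb in WT monocytes. In WT SPMs the inhibitor Timp2 led at 182 ± 28.3 CPM per kb, above Mmp9 (5.77) and Adam8 (4.08), which overlapped each other, then Mmp19 (1.28) and Timp1 (0.583), each clear of its neighbours. The WT lung samples held all 10 genes, with Timp2 at 63.7 ± 33.2 CPM per kb (n = 5) and Mmp8 last at 1.84 ± 0.999 CPM per kb, and every pair of neighbours in that order overlapped. ACKR2-/- samples had the same leading gene in each cell type: Mmp8 at 76.8 CPM per kb in monocytes, and Timp2 at 177 in SPMs and 36.1 in lung macrophages.

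**Figure D1:**
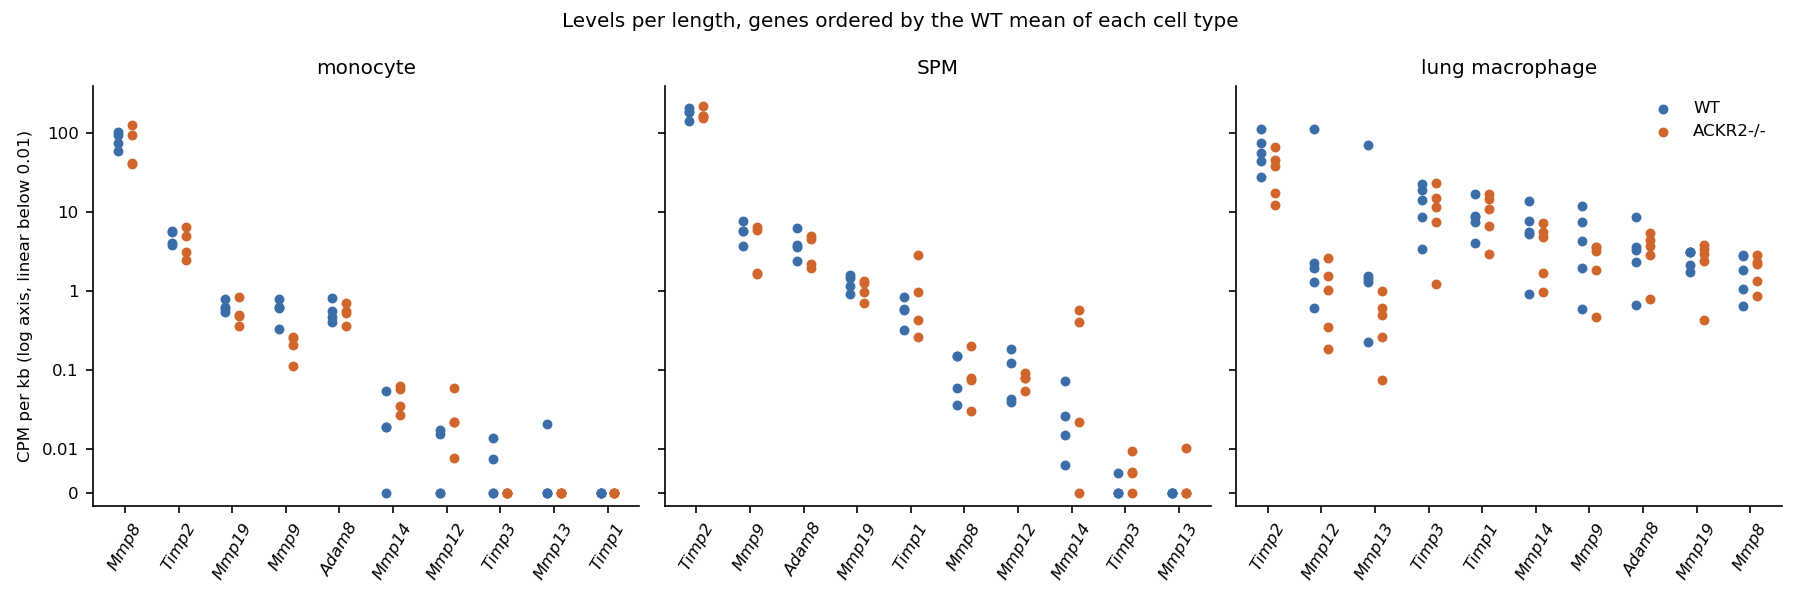
CPM per kb of gene length (log axis, linear below 0.01) of the 10 genes in each sample, in 1 panel per cell type with genes ordered by their WT mean. Points are samples, 4 per genotype in monocytes and SPMs and 5 in lung macrophages; Mmp8 stands alone at the top in monocytes and Timp2 in SPMs, whereas the lung genes overlap from 1 to the next.

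Mmp8 encodes the neutrophil collagenase. Its level in monocytes was 229, 145, 249 and 181 CPM in WT (201 ± 47.1, SD, n = 4) and 103, 99.5, 308 and 234 CPM in ACKR2-/- (186 ± 102). The ACKR2-/- samples lay both below and above the WT samples, and the log2 fold change was -0.11 (SE 0.33, adjusted p = 0.897, edgeR quasi-likelihood test with Benjamini-Hochberg adjustment over all genes tested, as throughout). The summed CPM of 10 neutrophil genes, none of them at 0, ran from 27491 to 66695 in WT monocytes and from 12809 to 42390 in ACKR2-/- monocytes, and in each genotype the sample with the highest Mmp8 had the lowest sum. The sort of the bone marrow monocytes took Ly6G- cells, a gate that leaves out neutrophils. The part of neutrophil RNA in the Mmp8 level was not tested. In bulk samples such as these, a change in the number of cells of a type and a change in RNA per cell cannot be told apart.

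SPMs had almost no Mmp8 (0.144, 0.361, 0.088 and 0.37 CPM in WT, and 0.192, 0.0733, 0.18 and 0.485 CPM in ACKR2-/-). Lung macrophages had 6.99, 6.73, 2.58, 4.47 and 1.56 CPM in WT and 6.96, 3.29, 5.42, 2.09 and 5.64 CPM in ACKR2-/-. The genotypes overlapped in both tissues. The mean Mmp8 CPM of WT monocytes was 835-fold that of WT SPMs and 45.0-fold that of WT lung macrophages, and the ratios were 801-fold and 39.8-fold in ACKR2-/-. Ratios of CPM between cell types, here and below, use factors set within each cell type. The log2 fold changes between cell types come from a fit with factors set across all 26 samples. The ratios and the log2 fold changes are therefore on different scales and differ in size. A call required an adjusted p below 0.05 together with a log2 fold change above 0.5 in size. Mmp8 was called lower in both macrophage types than in monocytes in the fit of the 26 samples, with log2 fold changes of -8.40 (SE 0.64, adjusted p = 1.08e-10) for SPMs and -5.49 (SE 0.47, adjusted p = 3.25e-10) for lung macrophages against monocytes in WT.

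Mmp9 (ENSMUSG00000017737, chr2:164940780-164955850, plus strand) encodes gelatinase B, which cuts denatured and basement membrane collagen. In monocytes it was read at 2.80, 2.24, 1.17 and 2.18 CPM in WT (2.10 ± 0.679) and at 0.914, 0.398, 0.895 and 0.744 CPM in ACKR2-/- (0.738 ± 0.239). Every ACKR2-/- sample lay below every WT sample. Among the 5 members tested in monocytes it was the 1 whose genotypes did not overlap, and 10.2% of all genes tested there did not overlap either. The WT mean was 2.84-fold the ACKR2-/- mean, the log2 fold change was -1.49 (SE 0.37, unadjusted p = 0.00193), and after adjustment it did not pass (adjusted p = 0.0835). DESeq2 gave an adjusted p of 0.0189 for Mmp9, and over all alternatives with edgeR or DESeq2 the adjusted p ranged from 0.0189 to 0.265. A two-sided exact permutation test of 4 against 4 samples gave p = 0.0286, the smallest it can give. Mmp9 was read from 139 counts in WT and 55 in ACKR2-/- over all 4 samples.

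Genes of other blood cells also differed between the same monocyte samples, and their part in the Mmp9 difference was not tested. Lcn2, from the list of regulators of metalloproteinase activity, was at 1048, 2295, 837 and 1502 CPM in WT and at 546, 700, 260 and 317 CPM in ACKR2-/-, with no overlap and an adjusted p of 0.0527. Of the 10 neutrophil genes 0 were called, and all 10 log2 fold changes were below 0. The summed CPM of 6 T cell genes was 2.34 to 3.41 in WT and 49.4 to 85.8 in ACKR2-/- monocytes, and all 6 (Cd3d, Cd3e, Cd3g, Trbc2, Cd5 and Lck) were called higher in ACKR2-/-, as were 0.913% of all genes tested there. Of 7 dendritic cell genes 6 were tested and 1 was called, Ccr7, a chemokine receptor of migrating dendritic cells and of T cells, higher in ACKR2-/- (log2 fold change 3.17, SE 0.49, adjusted p = 0.00726).

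In SPMs, Mmp9 was at 27.1, 20.6, 13.4 and 20.6 CPM in WT (20.4 ± 5.6) and at 5.79, 21.3, 23.3 and 5.98 CPM in ACKR2-/- (14.1 ± 9.52). ACKR2-/- replicates 1 and 4, the samples with high Ly6c2 and high sums of large peritoneal and alveolar macrophage genes, lay below all others and replicates 2 and 3 lay within the WT range. The log2 fold change was -0.54 (SE 0.46, adjusted p = 0.799). Without those 2 libraries the ACKR2-/- mean was 22.3 ± 1.47 CPM (n = 2), and without them and WT replicate 1, which stood apart in Fn1, the log2 fold change was 0.29 (adjusted p = 0.895). The part of cell makeup in the Mmp9, Adam8 and Mmp14 levels of SPMs was not tested.

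Lung macrophages had 26.3, 6.89, 42.9, 15.1 and 2.12 CPM of Mmp9 in WT (18.7 ± 16.4) and 12.7, 12.9, 11.5, 1.65 and 6.65 CPM in ACKR2-/- (9.09 ± 4.88). WT replicate 3 was the highest of the 10 and the ranges overlapped (log2 fold change -1.04, SE 0.71, unadjusted p = 0.172). Without it the WT mean was 12.6 ± 10.6 CPM (n = 4). Between cell types, the mean Mmp9 CPM of SPMs was 9.73-fold that of monocytes in WT and 19.1-fold in ACKR2-/-, or 30.2-fold without ACKR2-/- SPM replicates 1 and 4. Mmp9 was called higher in SPMs than in monocytes in both genotypes (log2 fold change 4.44, SE 0.72, adjusted p = 1.51e-05 in WT).

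**Figure D2:**
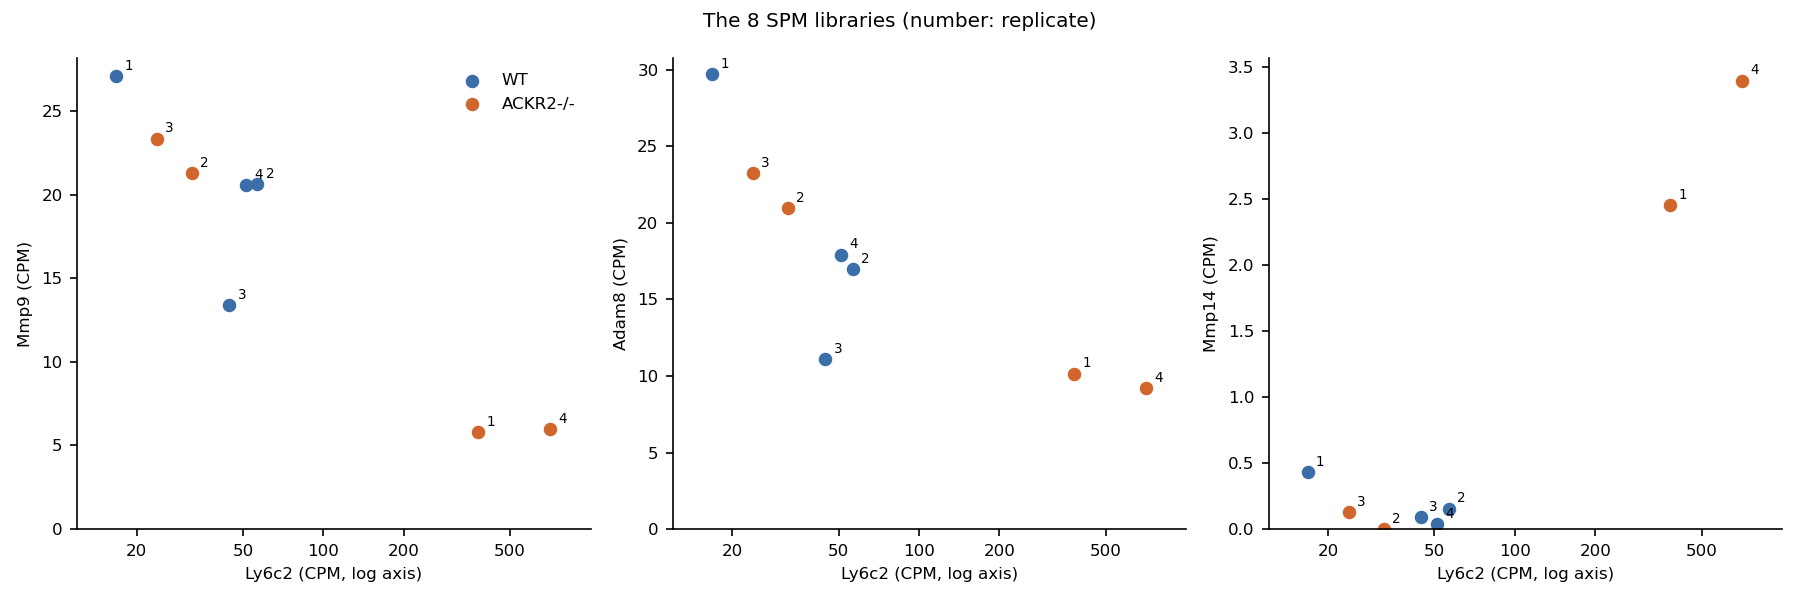
Mmp9, Adam8 and Mmp14 (CPM, linear axes) against the monocyte gene Ly6c2 (CPM, log axis) in the 8 SPM samples, with the replicate number beside each point. ACKR2-/- replicates 1 and 4, at 380 and 707 CPM of Ly6c2, hold the lowest Mmp9 and Adam8 and the highest Mmp14.

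Adam8 (ENSMUSG00000025473, chr7:139978932-139992562, minus strand) encodes a membrane protease of leukocytes that sheds surface proteins. In SPMs it had 29.7, 17.0, 11.1 and 17.9 CPM in WT (18.9 ± 7.80) and 10.2, 21.0, 23.2 and 9.18 CPM in ACKR2-/- (15.9 ± 7.25). The lowest 2 were again ACKR2-/- replicates 1 and 4, and without them the mean was 22.1 ± 1.60 CPM (n = 2). The log2 fold change of -0.26 (SE 0.37) became 0.52 without these 2 and WT replicate 1, and neither passed (adjusted p = 0.895 for the latter). In monocytes Adam8 lay between 1.65 and 3.78 CPM in all 8 samples. In lung macrophages it had 17.0, 15.6, 39.9, 10.8 and 3.12 CPM in WT and 13.1, 17.2, 25.4, 3.66 and 20.8 CPM in ACKR2-/-, overlapping, with the highest again WT replicate 3. The mean Adam8 CPM of SPMs was 7.25-fold that of monocytes in WT and 6.39-fold in ACKR2-/-, and Adam8 was called higher in SPMs in both (log2 fold change 4.01, SE 0.58, adjusted p = 3.22e-06 in WT).

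Mmp12, the macrophage elastase, was read mainly in the lung samples. The WT lung levels were 14.1, 9.40, 820, 16.7 and 4.43 CPM and the ACKR2-/- levels were 11.2, 7.52, 18.8, 2.53 and 1.33 CPM. WT replicate 3 was 43.7-fold above the highest of the other 9, which lay between 1.33 and 18.8 CPM. The WT mean was 173 ± 362 CPM with replicate 3 and 11.1 ± 5.39 CPM (n = 4) without it, against 8.27 ± 7.08 CPM in ACKR2-/-. The log2 fold change was -4.38 (SE 1.51, unadjusted p = 0.0137, adjusted p = 1.00) and -0.41 without replicate 3, and a two-sided exact permutation test gave p = 0.198.

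Monocytes had 0 to 2 counts of Mmp12 per WT sample and 1 to 8 per ACKR2-/- sample. SPMs had 0.288, 0.310, 1.32 and 0.887 CPM in WT and 0.575, 0.660, 0.386 and 0.566 CPM in ACKR2-/-, and the WT values lay on both sides of the ACKR2-/- values. Mmp12 was called higher in lung macrophages than in SPMs in WT (log2 fold change 6.77, SE 1.36, adjusted p = 0.000123, and 2.84 without replicate 3) and in ACKR2-/- (2.68, SE 1.16, adjusted p = 0.0454). The ACKR2-/- call of Mmp12 was lost in several alternatives, with RLE factors among them (adjusted p = 0.0513).

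Mmp13, an interstitial collagenase, had the same shape. In the lung it was read at 3.45, 4.13, 192, 3.76 and 0.604 CPM in WT (40.9 ± 84.7) and at 1.31, 1.63, 2.71, 0.201 and 0.691 CPM in ACKR2-/- (1.31 ± 0.957). WT replicate 3 was 46.5-fold above the highest other sample. Without it the WT mean was 2.99 ± 1.61 CPM (n = 4), with 3 of the 4 above every ACKR2-/- value. Mmp13 had a log2 fold change of -4.95 (SE 1.51, unadjusted p = 0.00689), or -1.16 without replicate 3, and the two-sided exact permutation test on all 10 gave p = 0.0873. The 8 monocyte samples had 1 count of Mmp13 together and the 8 SPM samples also 1. Against the floor of 3 counts over the SPM group, Mmp13 was at least 950-fold higher in WT lung macrophages, a value that WT replicate 3 decides. Without that sample Mmp13 was still called higher in WT lung macrophages than in WT SPMs (adjusted p = 3.26e-05, edgeR).

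The library labelled WT lung replicate 3 also differed in genes listed for interstitial macrophages and in genes of other cells. Its C1qa level was 2749 CPM against 65.0 to 351 CPM in the other 9, its Cd209a level was 534 CPM against 0.907 to 22.2 CPM, and its Ccr2 level was 337 CPM against 25.1 to 55.5 CPM. Fabp4 was at 36.4 CPM there against 226 to 622 CPM. The summed CPM of 9 interstitial macrophage genes ran from 1229 to 12538 in WT and from 521 to 1437 in ACKR2-/- lung samples, and that of 7 dendritic cell genes from 654 to 22361 in WT and from 287 to 1650 in ACKR2-/-, with no gene of either list at 0. WT replicate 3 gave the highest WT value of both sums. The interstitial list is not particular to the sorted lung cells in these data, since its sum was 12707 to 16416 CPM in WT SPMs. The part of cell makeup in the Mmp12 and Mmp13 levels was not tested.

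**Figure D3:**
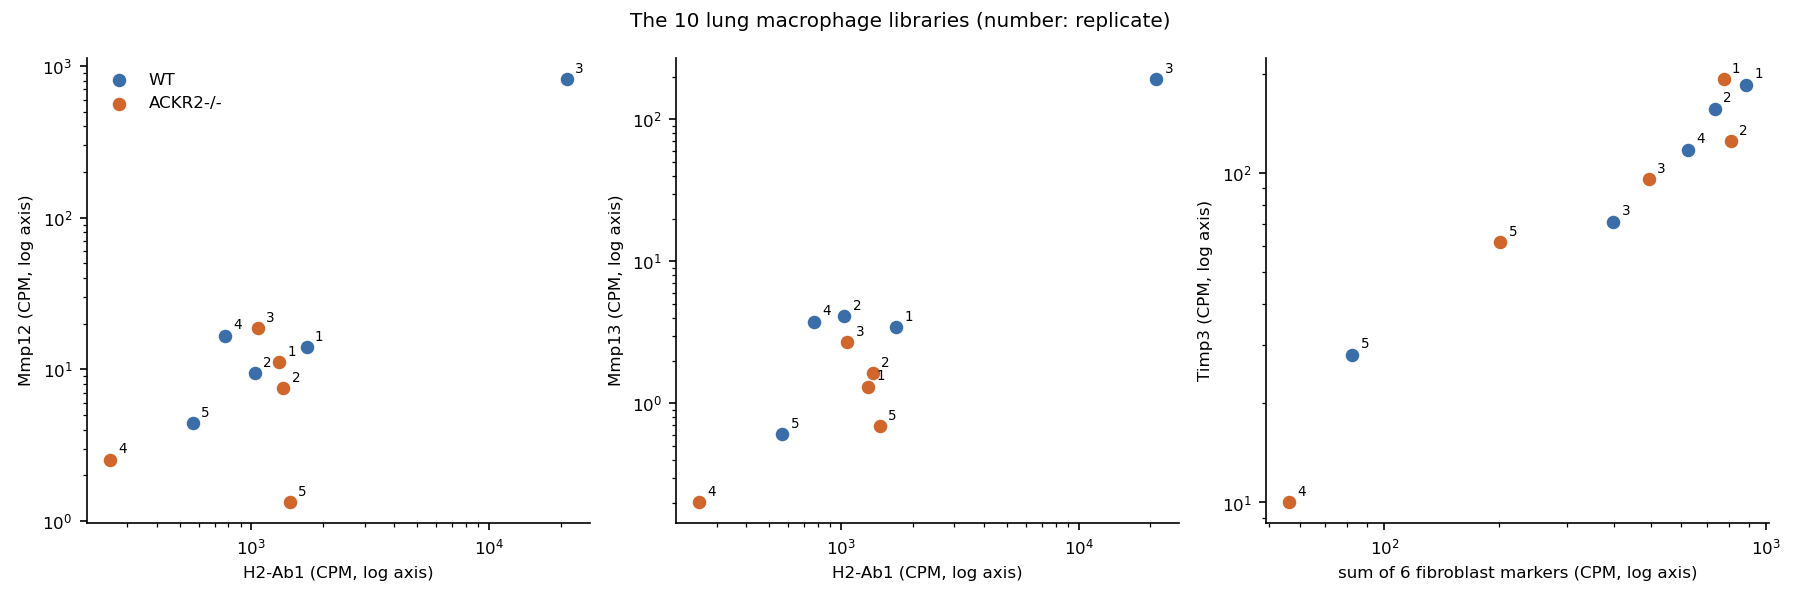
Mmp12 and Mmp13 against the MHCII gene H2-Ab1, and Timp3 against the summed level of 6 fibroblast genes, in the 10 lung macrophage samples (CPM, all axes log), with the replicate number beside each point. WT replicate 3 stands apart at 820 CPM of Mmp12, 192 CPM of Mmp13 and 21242 CPM of H2-Ab1, whereas in the last panel all 10 samples lie along 1 diagonal.

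Mmp14 (ENSMUSG00000000957, chr14:54431612-54445364, plus strand) encodes a membrane-anchored collagenase. Lung macrophages had 46.5, 33.9, 82.4, 31.8 and 5.44 CPM in WT (40.0 ± 28.0) and 43.0, 33.2, 29.3, 5.87 and 10.2 CPM in ACKR2-/- (24.3 ± 15.7). The ranges overlapped, WT replicate 3 was the highest and WT replicate 5 the lowest (log2 fold change -0.72, SE 0.64, and -0.25 without replicate 3). In SPMs, ACKR2-/- replicates 1 and 4 had 2.45 and 3.39 CPM, and the other 6 samples lay between 0 and 0.431 CPM. Mmp14 had too few reads to be tested between genotypes in SPMs or monocytes, where the 8 monocyte samples lay between 0 and 0.372 CPM. The mean CPM of lung macrophages was 225-fold that of SPMs in WT and 16.3-fold in ACKR2-/-, and both were called higher (adjusted p = 1.06e-05 and 0.00457). The ACKR2-/- fold rests on SPM replicates 1 and 4: it was 28.3 without replicate 4, and 377 without both, where the remaining 2 SPM samples held 5 counts. The call of Mmp14 as higher in ACKR2-/- SPMs than in ACKR2-/- monocytes (log2 fold change 3.68, adjusted p = 0.00503) turned to -0.64 (adjusted p = 0.669) without the libraries that stood apart.

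Mmp19 (ENSMUSG00000025355, chr10:128790910-128800824, plus strand), a secreted protease of basement membrane proteins, was read at a low level in all 6 groups. Monocytes had 2.21, 1.93, 2.11 and 2.80 CPM in WT and 2.96, 1.76, 1.26 and 1.70 CPM in ACKR2-/-. SPMs had 3.21, 5.58, 4.05 and 5.21 CPM in WT and 3.45, 4.51, 4.69 and 2.53 CPM in ACKR2-/-. In the lung the WT samples spanned 6.19 to 11.2 CPM and the ACKR2-/- samples 1.53 to 13.5 CPM. Genotypes overlapped in every cell type, with log2 fold changes of -0.24 (SE 0.31), -0.25 (SE 0.29) and -0.02 (SE 0.45) in monocytes, SPMs and lung macrophages. The mean Mmp19 CPM of lung macrophages was 4.15-fold that of monocytes in WT, and Mmp19 was called higher there (log2 fold change 2.04, SE 0.41, adjusted p = 0.000127). It was 2.08-fold that of SPMs in WT, whereas the fit of the 26 samples gave a log2 fold change of -0.14 (adjusted p = 0.775, edgeR).

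Timp2 (ENSMUSG00000017466, chr11:118301069-118355740, minus strand) was the most abundant member per length in SPMs and lung macrophages. Its SPM levels were 561, 728, 827 and 726 CPM in WT (711 ± 110) and 646, 644, 604 and 869 CPM in ACKR2-/- (691 ± 120). The genotypes overlapped, with a log2 fold change of -0.04 (SE 0.21), the smallest error of any member in the 3 genotype comparisons. In monocytes Timp2 had 22.6, 15.9, 21.9 and 14.9 CPM in WT and 9.57, 12.4, 25.0 and 19.5 CPM in ACKR2-/-, again overlapping (log2 fold change -0.18, SE 0.27).

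The lung levels of Timp2 were 295, 218, 445, 174 and 108 CPM in WT (248 ± 129) and 260, 178, 151, 47.7 and 67.7 CPM in ACKR2-/- (141 ± 86.0). WT replicate 3 was again the highest and 2 ACKR2-/- samples lay below all WT samples (log2 fold change -0.82, SE 0.48, unadjusted p = 0.113, and -0.48 without replicate 3). The mean Timp2 CPM of SPMs was 37.8-fold that of monocytes in WT and 41.6-fold in ACKR2-/-. It was 2.86-fold and 4.91-fold that of lung macrophages, and the 4 SPM samples of each genotype lay above all its lung samples. In the 26-sample fit Timp2 was called higher in SPMs than in monocytes (log2 fold change 6.42, SE 0.53, adjusted p = 3.95e-10 in WT) and lower in lung macrophages than in SPMs (-2.71, SE 0.41, adjusted p = 2.82e-06).

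Timp1 (ENSMUSG00000001131, chrX:20870166-20874735, plus strand), the inhibitor induced in inflamed and injured tissue, had 0 counts in all 8 monocyte samples. SPMs had 0.288, 0.516, 0.528 and 0.739 CPM in WT and 0.383, 2.53, 0.232 and 0.862 CPM in ACKR2-/-, with ACKR2-/- replicate 2 well above the rest (log2 fold change 0.92, SE 0.69, adjusted p = 0.788, and -0.075 without that sample). Lung macrophages had 15.1, 7.90, 6.61, 7.84 and 3.58 CPM in WT and 13, 15.3, 6.02, 2.62 and 9.84 CPM in ACKR2-/-, overlapping. Against the floor of 3 counts over the monocyte group, Timp1 was at least 12-fold higher in WT SPMs and at least 185-fold higher in WT lung macrophages, and at least 22.9-fold and 238-fold higher in ACKR2-/-. The ACKR2-/- SPM bound was 12.3-fold without replicate 2, which also had the highest sums of fibroblast (3.85 CPM) and mesothelial genes (2.38 CPM) among the SPMs, where the other 7 had at most 0.981 and 0.929 CPM. The part of those cells in its Timp1 level was not tested. Syn1, on the opposite strand, overlaps Timp1 and had 190 counts in WT SPMs against 42 of Timp1, and 2.82% to 17% of the Timp1 counts in the lung samples.

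Timp3 (ENSMUSG00000020044, chr10:86300372-86349506, plus strand), an inhibitor that binds to the matrix, was read almost entirely in the lung, with at most 3 counts in any monocyte or SPM sample. Lung levels were 186, 157, 71.2, 118 and 28.1 CPM in WT (112 ± 63.5) and 193, 125, 95.8, 10.0 and 61.8 CPM in ACKR2-/- (97.1 ± 68.6). Both genotypes spanned a wide range, with the lowest sample ACKR2-/- replicate 4 and the highest ACKR2-/- replicate 1, and the ranges overlapped (log2 fold change -0.20, SE 0.64). WT lung macrophages had 9060 times the summed Timp3 counts per read of WT SPMs, with a 95% exact counting interval of 1626 to 357875 since SPMs had 1 count. Syn3 overlaps Timp3 on the opposite strand, and its lung counts were 42.0% to 67.4% of those of Timp3. Whether the counting used strand was not given in the sources used here, so reads of Timp1 and Timp3 and of these neighbours cannot be told apart. The same holds for Mmp19 and Adam8, which overlap Tmem198b and Gm16201 on the opposite strand. Mmp12 overlaps Mmp1b, which had 1 count in the lung samples and 0 elsewhere. Timp2 overlaps Cep295nl on its own strand, so that strand would not separate their reads.

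The lung Timp3 level moved with genes of fibroblasts and of other non-leukocytes across the 10 samples. The summed CPM of 6 fibroblast genes (Pdgfra, Col1a1, Col1a2, Col3a1, Dcn and Lum) ran from 82.4 to 885 in WT and from 56.2 to 808 in ACKR2-/-, with none at 0. Timp3 varied 19.3-fold in CPM over the 10 samples, and 2.20-fold, from 15.5 to 34.1 CPM, per 100 CPM of that sum. For Mmp14 the CPM varied 15.1-fold and the ratio 5.04-fold, for Timp2 9.34-fold and 5.96-fold, and for Timp1 5.85-fold and 4.53-fold. For Mmp8 and Mmp19 the ratio varied more than the CPM did (9.15-fold against 4.48-fold, and 9.18-fold against 8.83-fold). The fibroblast sum was at most 0.977 CPM in any monocyte sample and at most 3.85 CPM in any SPM sample. Sums of other tissue genes were also lowest in WT replicate 5 and ACKR2-/- replicate 4, and no gene of these lists was at 0 in either lung group. They ran from 252 to 18893 CPM for 6 epithelial genes, from 111 to 607 CPM for 5 endothelial genes and from 3.38 to 131 CPM for 5 mesothelial genes. Timp3 varied 2.73-fold relative to the mesothelial sum, 4.02-fold relative to the endothelial sum and 8.72-fold relative to the epithelial sum. The gating of lung cells in the study kept CD45+ cells, which leaves out all these cell types. The part of their RNA in these levels was not tested.

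**Figure D4:**
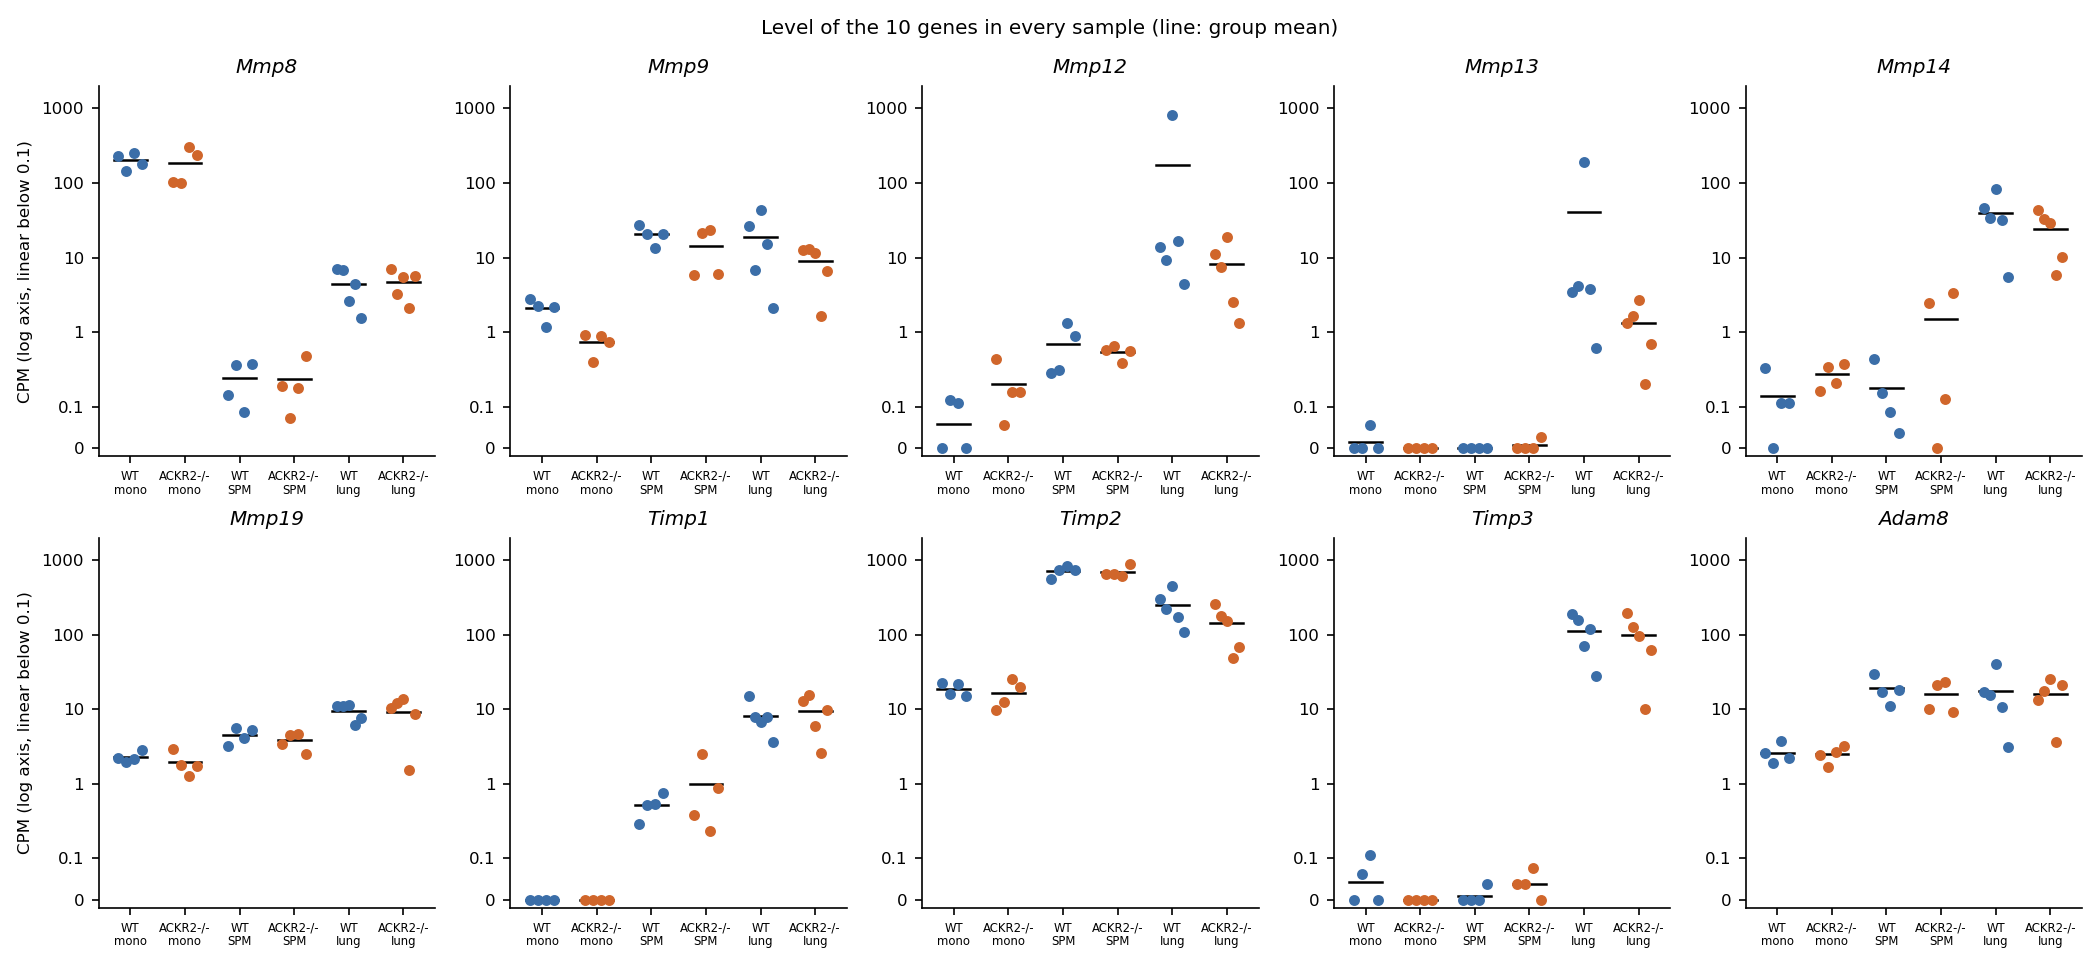
CPM (log axis, linear below 0.1) of each of the 10 genes in the 26 samples, with 1 panel per gene, points for samples and a line for the group mean. Mmp8 is highest in monocytes, Timp2 in SPMs, and Mmp12, Mmp13, Mmp14, Timp1 and Timp3 in lung samples, where 1 WT sample holds 820 CPM of Mmp12 and 192 CPM of Mmp13.

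The first comparison of the design asks how ACKR2-/- differs from WT in each cell type. In monocytes 5 members had enough reads to be tested (Mmp8, Mmp9, Mmp19, Timp2 and Adam8), 0 were called, against 1.27% of the 13246 genes tested, and 1 had an unadjusted p under 0.05. All 5 log2 fold changes were below 0, with a median of -0.18 against 0.00 over all genes. In SPMs 6 members were tested (Mmp9, Mmp12, Mmp19, Timp1, Timp2 and Adam8), 0 were called, against 0.0462% of 12997 genes, and 0 had an unadjusted p under 0.05. Their median was -0.25 against -0.05 over all genes, and the genotypes of 0 of the 6 did not overlap, against 3.4% of all genes tested.

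In lung macrophages all 10 members were tested and 0 were called, against 0% of 16824 genes, and Mmp12 and Mmp13 had an unadjusted p under 0.05. Of the 10 log2 fold changes 8 were below 0, with a median of -0.46 against -0.04 over all genes, and the genotypes of 0 of the 10 did not overlap, against 0.446% of all genes tested. This median includes WT replicate 3. Without that library the log2 fold changes given above moved toward 0, to -0.41 (Mmp12), -1.16 (Mmp13), -0.25 (Mmp14) and -0.48 (Timp2). Without the library labelled WT replicate 5, which had no Ackr2, 0 members were called. The log2 fold changes then ran from -5.29 (Mmp13) to 0.017 (Timp1), and that of Mmp8 turned from 0.07 to -0.12 (adjusted p = 0.982, edgeR). DESeq2 called 1 member in monocytes (Mmp9), 0 in SPMs and 0 in lung macrophages, where it called 540, 30 and 21 of all genes. It gave no adjusted p for Mmp12 and Mmp13 in lung macrophages. A member that failed the test is not shown to be equal between genotypes, since the errors of the lung log2 fold changes ran from 0.45 to 1.51.

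**Figure D5:**
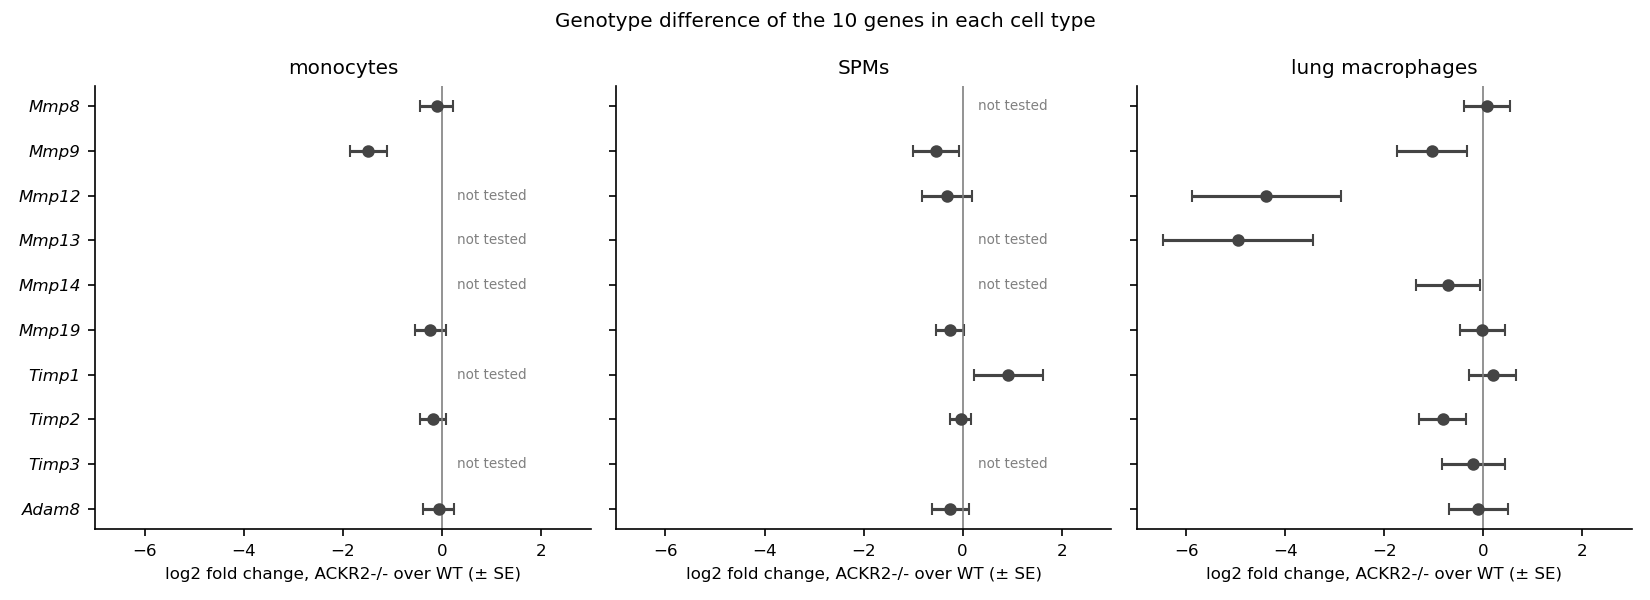
Log2 fold change of ACKR2-/- over WT with its SE for the members tested in each cell type (edgeR, 4 against 4 samples in monocytes and SPMs and 5 against 5 in lung macrophages). Mmp9 in monocytes lies at -1.49 ± 0.37, and Mmp12 and Mmp13 in lung macrophages at -4.38 ± 1.51 and -4.95 ± 1.51, where 1 WT sample sets the WT mean.

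Cell types were compared within each genotype in 1 fit of all 26 samples, in which 17792 genes and all 10 members were tested. Cell type, tissue and count table go together in these data and cannot be told apart. In WT, 6 members were called between SPMs and monocytes, against 41.9% of all genes, with Mmp9, Mmp19, Timp1, Timp2 and Adam8 higher in SPMs (21.8% of all genes were) and Mmp8 lower (20.1%). Between WT lung macrophages and monocytes all 10 were called, against 63.8%, with 9 higher (39.5% of all genes) and Mmp8 lower (24.4%). Between WT lung macrophages and SPMs 9 were called, against 62.3%, with Mmp8, Mmp12, Mmp13, Mmp14, Timp1 and Timp3 higher in the lung samples (39.1% of all genes), Mmp9, Timp2 and Adam8 lower (23.2%) and Mmp19 not called. The median log2 fold changes of the members were 3.09, 5.91 and 2.85 in these comparisons, against 0.00, 0.34 and 0.41 over all genes.

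The ACKR2-/- samples gave 7 members called between SPMs and monocytes (40.3% of all genes), 10 between lung macrophages and monocytes (62%) and 9 between lung macrophages and SPMs (63.6%). Of the first 7, Mmp9, Mmp14, Mmp19, Timp1, Timp2 and Adam8 were higher in SPMs (20.8% of all genes) and Mmp8 lower (19.5%). Mmp8 was the 1 member lower in ACKR2-/- lung macrophages than in monocytes (24.3%, against 37.6% higher), and Mmp9, Timp2 and Adam8 were the 3 lower than in SPMs (24.7%, against 38.9% higher). Without scaling factors, with library totals alone, the median log2 fold change of all genes moved by -0.96 in SPMs against monocytes and by 1.21 in lung macrophages against SPMs in WT. On that scale Mmp9 and Adam8 were no longer called between WT lung macrophages and SPMs (log2 fold change -0.12, adjusted p = 0.866, and -0.14, adjusted p = 0.813, from -1.31 and -1.31). Mmp19 turned from -0.14 to 1.15 (adjusted p = 0.0154) in that comparison, and between WT SPMs and monocytes its call was lost (0.97, adjusted p = 0.0631, from 2.17). Even with TMM factors, Mmp9 was at the threshold between WT lung macrophages and SPMs (adjusted p = 0.0499).

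Several of the calls between lung macrophages and SPMs also rested on single libraries (edgeR, each of the 26 left out in turn). The WT call of Mmp9 was lost for 20 of the 26 libraries, with adjusted p up to 0.115, and that of Adam8 for 1, WT SPM replicate 1 (adjusted p = 0.0692). In ACKR2-/-, the call of Mmp12 was lost for 13 libraries (adjusted p up to 0.109) and that of Mmp13 for 5, which were each of the 4 ACKR2-/- SPM samples and ACKR2-/- lung replicate 3 (adjusted p up to 0.0651). The ACKR2-/- call of Adam8 was lost for 3, ACKR2-/- SPM replicates 2 and 3 and ACKR2-/- lung replicate 4 (adjusted p up to 0.0897). No other call of a member between cell types was lost by leaving out 1 library.

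Whether the genotype difference itself changed with the cell type was tested by the interaction terms of the same fit. None of the 10 members passed in any of the 3 comparisons, against 0.253% of all genes for SPMs minus monocytes, 0.152% for lung macrophages minus monocytes and 0.0393% for lung macrophages minus SPMs. The largest terms with an unadjusted p under 0.05 were Mmp12 at -5.96 (unadjusted p = 0.0335, adjusted p = 0.777, edgeR) for lung macrophages minus monocytes and -4.08 (adjusted p = 0.775) for lung macrophages minus SPMs. Mmp14 was at -3.80 (unadjusted p = 0.00655, adjusted p = 0.630, edgeR) for lung macrophages minus SPMs. Without WT lung replicate 3 the Mmp12 terms were -2.06 and -0.16. Without all libraries that stood apart the Mmp14 term was -0.09.

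Other genes of the pathway were taken from lists. Of 18 other MMP and TIMP genes, 2 had enough reads to be tested in monocytes, 1 in SPMs and 10 in lung macrophages, and 0 were called between genotypes in any. The 2 tested in monocytes had log2 fold changes of opposite sign, with Mmp25, a membrane-anchored neutrophil protease, at 3.39, 4.54, 1.89 and 2.29 CPM in WT and 1.02, 1.2, 1.05 and 0.637 CPM in ACKR2-/- (adjusted p = 0.05002, not passed), and Mmp28 at 5.67, 6.53, 5.62 and 5.09 CPM in WT and 8.77, 8.37, 8.21 and 7.28 CPM in ACKR2-/- (adjusted p = 0.156). Neither gene overlapped between genotypes in monocytes, as was the case for 10.2% of all genes tested there. In the lung the highest of the list were Mmp2 (67.6 ± 44.5 CPM in WT) and Mmp3 (47.2 ± 29.4 CPM), proteases known from fibroblasts, and per 100 CPM of the fibroblast sum Mmp2 lay between 9.83 and 15 CPM over the 10 samples.

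Of the 10 genes of that list tested in the 26-sample fit, 8 were called higher and 1 lower in WT lung macrophages than in WT monocytes (39.5% and 24.4% of all genes), and 8 higher and 0 lower than in WT SPMs (39.1% and 23.2%). Of 15 regulators of metalloproteinase activity, 9, 10 and 14 were tested in monocytes, SPMs and lung macrophages and 0 were called between genotypes. The highest of these in WT lung macrophages was Plaur, the urokinase receptor (1056 ± 390 CPM), which at 409 CPM in replicate 3 lay below the other 9 samples (1009 to 1448 CPM). Of 12 matrix substrates 3, 3 and 12 were tested, and of 8 other ADAM proteases 5, 5 and 7, and 0 of either list were called between genotypes. In WT lung macrophages Col3a1 (176 ± 98.4 CPM) and Eln (116 ± 71.2 CPM) led the substrates, whereas Fn1 led in WT monocytes (589 ± 136 CPM) and SPMs (1275 ± 1057 CPM).

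The genes nearest to each member were taken as those with the highest Pearson r of log2 CPM deviations from the 6 group means over the 26 samples, among 7489 or 7490 genes, as a description without a test, since the samples share depth and cell makeup. For Mmp13 they were the MHCII genes H2-Eb1 (r = 0.93), H2-Aa (0.92) and H2-Ab1 (0.90), and for Mmp12 Rab3il1 (0.88), Scimp (0.87) and Tmem273 (0.87). These r came from the 10 lung samples, where they were 0.95 for H2-Eb1 and 0.96 for Rab3il1, whereas in the other 16 samples, where Mmp13 had 2 counts in all, they were -0.27 and 0.26. With WT lung replicate 3 left out of the correlation but kept in the group means, the r of Mmp13 with H2-Eb1 was 0.84. That of Mmp12 with Rab3il1 was 0.75. The remaining WT lung samples keep a shared offset from those means, so these r are not free of that replicate. Timp3 lay nearest to Gsn (0.91), Timp2 to Rnase4 (0.91), Timp1 to Spp1 (0.84), Mmp14 to Tmem119 (0.81) and Mmp19 to Myc (0.84). Mmp9 and Adam8 shared Tmem154 among their nearest 3 genes (r = 0.88 and 0.84), with Retnla first for Adam8 (0.87). The lowest leading value was that of Mmp8 with Tppp3 (0.79).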

How the data were processed

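Bulk RNA-seq was measured in 26 samples of sorted mouse cells. The deposited files hold 3 tables of raw read counts per gene, 1 per cell type, with no normalization by the authors. Per the labels, RNA was amplified with the SMARTer kit after poly-A enrichment, and the submitters' processing notes name mm10, HISAT2 2.0.5, featureCounts 1.5.0-p3 and DESeq2. The lung table ends with 5 summary lines in the manner of HTSeq, holding 56.3% of its counts. These lines entered neither library sizes nor tests, and which tool counted that table is unsure. No column was left unmapped.

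Genotypes were compared within each cell type with edgeR 4.0.16 (limma 3.58.1, R 4.3.3): filterByExpr with a minimum count of 10 and a minimum total of 15, TMM factors, quasi-likelihood F-test and Benjamini-Hochberg adjustment over all genes tested. Cell types and interactions were tested in 1 fit of the 6 groups over the shared genes. Calls required an adjusted p below 0.05 and, other than for interactions, a log2 fold change above 0.5 in size. CPM used the library size of the tested genes times the TMM factor of the gene's own cell type, and CPM per kb the gene length of the deposited tables. Ratios of CPM between cell types therefore lack the scaling across cell types that the fit of the 6 groups used. Permutation tests of single genes used the mean difference of log2(CPM + 1). Lower bounds used 3 counts over the group. PCR reads carry no molecular identifiers, so intervals and bounds cover counting error only. The tests were checked on simulated counts.

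Samples were grouped by the genotype and cell type labels. Replicates differed by more than counting noise, so none was merged. Nothing in the sources used here states that samples of 1 group came from separate cultures or cohorts, so p-values measure the spread between these samples, which may be partly technical. The members and the gene lists were chosen with earlier results of these data known. Every member was named. Of the other lists, the genes called between genotypes (T cell genes and Ccr7), the most abundant genes and, in monocytes, the only 2 tested genes of the other MMP and TIMP list were named. Genes naming the state of the libraries that stood apart (Ly6c2, C1qa, Cd209a, Ccr2, Fabp4 and Fn1) were chosen after their values were seen, as were those libraries: WT SPM replicate 1, ACKR2-/- SPM replicates 1 and 4, WT lung replicates 3 and 5 and ACKR2-/- lung replicate 4. Alternatives were DESeq2 1.42.0, RLE and upper-quartile factors, no filter or a filter at 1 CPM, a robust fit, the adjusted p alone, a block for the replicate number, leaving out each replicate and, added after seeing the data, leaving out those libraries and using library totals alone.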

Additional observations from a re-analysis of the deposited data

Results flagged for a closer look

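The levels of each member were searched for samples far from the others of their group, in the groups of 4 or 5 samples. Of 51 groups searched, 3 held such a sample, and chance gives about 1 in 20. The library labelled WT lung replicate 3 had 820 CPM of Mmp12, with the nearest WT sample at 16.7 CPM and the lowest at 4.43 CPM. The same library had 192 CPM of Mmp13, with the nearest at 4.13 CPM and the lowest at 0.604 CPM. ACKR2-/- SPM replicate 4 had 869 CPM of Timp2, with the other 3 between 604 and 646 CPM.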

How the results depend on the processing

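Member results kept their direction and side of the threshold in 2247 of 2342 alternative values over 80 results, 54 lost the call, 2 gained it and 39 turned sign. Genes called between genotypes numbered 168 in monocytes, 6 in SPMs and 0 in lung macrophages, against 540, 30 and 21 with DESeq2 and 346 and 52 in monocytes and SPMs without a filter, and members called rose from 0 to 1 in monocytes (Mmp9 by DESeq2). DESeq2 gave no adjusted p for Mmp12 and Mmp13 in lung macrophages. Interaction calls of 45 genes for SPMs minus monocytes, 27 for lung macrophages minus monocytes and 7 for lung macrophages minus SPMs became 135, 113 and 23 with DESeq2, 42 for the second without a filter and 3 for the third with library totals alone, where genes called between ACKR2-/- SPMs and monocytes rose from 7172 to 11298.

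Leaving out the libraries that stood apart gave 13 calls between genotypes in SPMs and 44 for lung macrophages minus monocytes. It turned the genotype log2 fold changes of Mmp9 (0.29) and Adam8 (0.52) in SPMs and of Mmp8 (-0.17), Mmp19 (0.26) and Adam8 (0.42) in lung macrophages. It also turned Mmp14 between ACKR2-/- SPMs and monocytes (-0.64) and its SPM minus monocyte term (-1.19), and the Mmp12 lung minus SPM term (0.20). Mmp19 between lung macrophages and SPMs turned to -0.20 in ACKR2-/- with upper-quartile factors and to 1.15 in WT with library totals alone. The same totals ended the calls of Mmp9 (-0.70, adjusted p = 0.299) and Adam8 (-0.05, adjusted p = 0.930) between ACKR2-/- lung macrophages and SPMs and of Mmp19 (0.97, adjusted p = 0.0565) between ACKR2-/- SPMs and monocytes. The causes were not tested.

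Leaving out 1 replicate at a time, genotype calls ranged from 76 to 413 in monocytes and from 3 to 8 in SPMs, and interaction calls from 29 to 58, from 13 to 53 and from 4 to 7 in the order above. The monocyte count was lowest without WT replicate 1 and highest without ACKR2-/- replicate 3. Genotype log2 fold changes that changed sign ranged from -0.45 to 0.11 (Mmp8), -0.23 to 0.16 (Adam8) and -0.43 to 0.011 (Timp2) in monocytes. They ranged from -0.50 to 0.045 (Adam8), -0.57 to 0.10 (Mmp12), -0.075 to 1.26 (Timp1) and -0.17 to 0.043 (Timp2) in SPMs. In lung macrophages they ranged from -0.12 to 0.31 (Mmp8), -0.19 to 0.25 (Mmp19), -0.37 to 0.49 (Adam8), -0.058 to 0.54 (Timp1) and -0.61 to 0.10 (Timp3), and Mmp19 between ACKR2-/- lung macrophages and SPMs from -0.12 to 0.35.

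Samples with the same replicate number correlated between -0.12 and 0.64 in their deviations from the group means. They correlated best with their own number for 2 of 13 numbers. A general pairing by number was therefore not seen, and whether samples of some numbers share a batch was not tested. The replicate block gave 17 genes for lung macrophages minus monocytes, 186 and 6 genotype calls in monocytes and SPMs, and 0 members called between genotypes, and the call of Adam8 between ACKR2-/- lung macrophages and SPMs was lost (adjusted p = 0.0509). Counts limit Mmp12, Mmp13, Mmp14, Timp1 and Timp3 in monocytes and Mmp8, Mmp13, Mmp14 and Timp3 in SPMs, which were too few to test.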
